A study of Homo sapiens with 44 samples.

Results

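The genes described here are 9 factors by which cells hinder viruses: IFITM1, IFITM2, IFITM3, BST2, SAMHD1, APOBEC3F, APOBEC3G, SP100 and PML. They were chosen by name as rows of the deposited gene table, which lists 40663 symbols, and all 9 were among the 9513 genes with enough counts to be tested. The table holds bulk RNA-seq of Ccd-18Co, an established line of normal human colon fibroblasts, so that every library comes from 1 line. There were 11 groups of 4 libraries each, namely unstimulated cells and cells given IFNα, IFNγ, TNF, OSM, IL-6, IL-13, IL-17A, IL-22 or TGF-β1 at 10 ng/ml, or IL-1β at 0.1 ng/ml. All groups, the unstimulated one included, were kept without serum for 72 h beforehand, and stimulation lasted 24 h. The labels do not say that replicates came from separate cultures, so p-values measure the spread between these libraries, which may be technical.

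Restriction factors act at different steps of infection. The IFITM proteins sit in the plasma membrane and endosomes and hinder the fusion of viral and cellular membranes, and BST2 (tetherin) holds newly budded enveloped particles on the cell surface. SAMHD1 breaks down the deoxynucleotides needed to copy a viral genome into DNA, and APOBEC3F and APOBEC3G deaminate cytidines in single-stranded viral DNA. PML builds the scaffold of nuclear bodies, which also hold SP100 and can silence the genomes of DNA viruses. Signals from the receptor of type I interferons such as IFNα reach genes mainly through the interferon-stimulated response element (ISRE), whereas those from the IFNγ receptor reach them mainly through the gamma-activated site (GAS).

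The sequences upstream of the members are shown because these elements are the known contact points of both interferons. RefSeq windows of the 250 bases before the transcript start (GRCh38.p14) were at hand for 5 of the 9 members: IFITM1, IFITM3, BST2, SAMHD1 and SP100. IFITM2, APOBEC3F, APOBEC3G and PML had none. They were searched on both strands for an ISRE-type motif, GAAA followed by any 2 bases and GAAA again, and a GAS-type motif, TTCNNNGAA, where N is any base. The ISRE-type motif was found in 3.02% of all 35116 windows of this length and the GAS-type motif in 6.57%. Below, capitals mark the bases of any match to either motif, and each stretch is written 5′ to 3′ on the strand of its gene. The first is the whole IFITM3 window at chr11:320861-321110 on the minus strand, in which GENCODE v44 places no exon. The IFITM1 stretch of 30 bases lies at chr11:313990-314019 on the plus strand and reaches into the first exon of IFITM1 transcripts in GENCODE v44, which start before the RefSeq one. The BST2 stretches of 30 bases lie on the minus strand at chr19:17405741-17405770, where exons of MVB12A and BISPR also lie, and at chr19:17405670-17405699, where an exon of BISPR lies.
IFITM3: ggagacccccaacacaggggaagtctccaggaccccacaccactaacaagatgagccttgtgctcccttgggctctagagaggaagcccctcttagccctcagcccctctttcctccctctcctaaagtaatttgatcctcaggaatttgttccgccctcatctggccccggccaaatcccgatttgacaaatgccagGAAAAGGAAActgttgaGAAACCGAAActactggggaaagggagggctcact
IFITM1: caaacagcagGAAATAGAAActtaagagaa
BST2, farther from the start: tcctTTCTGGGAAACTGAAACTGAAAacct
BST2, nearer the start: ggtcagagcacTTCCTGGAActtgctattg

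The IFITM3 window held 2 ISRE-type matches, from 52 to 43 and from 35 to 26 bases before the start, and no GAS-type match. IFITM1 had 1 ISRE-type match, from 40 to 31 bases before the start, and 1 GAS-type match, from 12 to 4 bases before it. The BST2 window held 2 ISRE-type matches that overlap each other, and 2 GAS-type matches, the farther of which overlaps the farther ISRE-type match. No match to either motif was found in the SAMHD1 window or in the 2 SP100 windows. In GENCODE v44, however, 185 of the 250 bases of the SAMHD1 window lie in exons of SAMHD1 itself. The SP100 windows lie within the SP100 locus and hold 250 and 0 bases of its exons. Of all windows, 0.225% held 2 or more ISRE-type matches and 0.31% held both motifs. A match is a description of the letters, and no match says only that these letters are absent from this window.

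**Figure D1:**
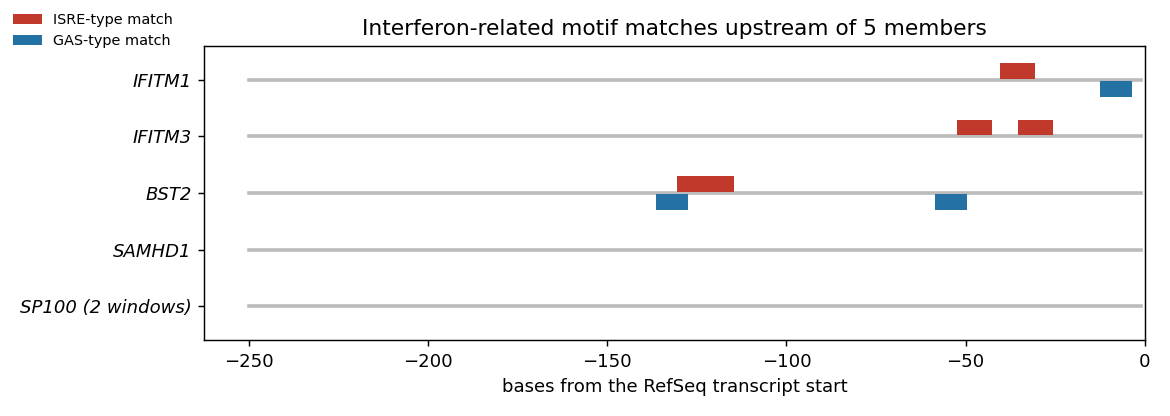
Position of ISRE-type (red) and GAS-type (blue) matches in the 250 bases before the RefSeq transcript start of 5 members; the x axis gives bases from the start, and the grey lines are the windows searched. The windows of IFITM1, IFITM3 and BST2 held matches, and those of SAMHD1 and SP100 held none.

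IFITM2, IFITM1 and IFITM3 lie next to each other on chromosome 11 (GENCODE v44 on GRCh38: 303655 to 309397, 310041 to 315272 and 319676 to 329475, IFITM3 on the minus strand). APOBEC3F and APOBEC3G are neighbours on chromosome 22 (39040604 to 39055972 and 39077067 to 39087743). The others are single loci, with SP100 on chromosome 2 (230415942 to 230545606), PML on chromosome 15 (73994673 to 74047827), BST2 on chromosome 19 (17402939 to 17405630) and SAMHD1 on chromosome 20 (36890229 to 36951893). All are protein-coding. The IFITM genes are near copies, and 21.3% of the 31-base words of IFITM1, 10.3% of those of IFITM2 and 28.9% of those of IFITM3 also occurred in the transcripts of the other 2. With the transcripts of any other gene the shares were 59.4%, 17% and 46.8%, and 52.2% of the words of IFITM1 occurred in an unnamed protein-coding gene on the same strand whose exons overlap those of IFITM1 and IFITM2. APOBEC3F shared 26.5% of its words and APOBEC3G 17.9% with some other gene, and 11.9% of those of APOBEC3G occurred in APOBEC3F. Reads from shared words were divided between genes by estimation, so the levels of these genes are less certain than their counts alone would say. Whether strand was used in counting is not given in the sources used here, so reads of IFITM1, IFITM2, IFITM3, SAMHD1, SP100 and PML cannot be told from those of genes on the opposite strand that share exon bases with them.

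The libraries held between 742173 and 2213424 counts each. Collagen genes, DCN, LUM and VIM, which mark fibroblasts, were detected in all 44 libraries, while the leukocyte markers PTPRC, CD3E, CD14 and MS4A1 summed to at most 4.39 CPM (counts scaled to library size) and the endothelial markers to at most 2.65 CPM. Of the epithelial markers only VIL1 passed 5 counts in a library, with at most 26.6 CPM. The summed markers of unstimulated libraries overlapped with those of each cytokine group for all 4 cell types, except after TNF and IL-1β. After TNF the fibroblast markers were at 21000 to 27200 CPM, below the 28600 to 40700 CPM of unstimulated libraries, and the endothelial markers, at 0 in unstimulated libraries, were at 0.706 to 2.14 CPM after TNF and at 0.649 to 2.65 CPM after IL-1β. The endothelial markers PECAM1, VWF and CDH5 had at most 2, 4 and 2 counts in a library. The endothelial sums are thus near the floor given below. In bulk samples, fewer cells of a type and less RNA per cell cannot be told apart. A transcript with at most 3 counts in a library, between 1.39 and 3.85 CPM, was counted as not measured there. This floor sets only the bounds given for BST2 and for listed genes. All levels and fitted fold changes use such counts as they are. In unstimulated cells SAMHD1 had 1 such library, APOBEC3G 2 and PML 2, so their fold changes rest partly on counts at or under the floor.

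In unstimulated fibroblasts the members differed in level. Per kilobase of canonical transcript, IFITM3 stood at 337 CPM, IFITM1 at 159 and IFITM2 at 42.4, followed by SP100 at 13.9. The other 5 were between 0.273 (PML) and 1.93 (APOBEC3G) CPM per kilobase, with 0 to 12.3 raw counts per library. After IFNα the order changed on this scale, with IFITM1 at 8892, IFITM3 at 3061, IFITM2 at 295 and BST2 at 215 CPM per kilobase. All other levels below are CPM that are not divided by length, and are compared only within a gene.

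After IFNα, all 9 members rose (edgeR quasi-likelihood test, Benjamini-Hochberg adjusted p under 0.05), where 4.99% of all tested genes rose. Each also rose by more than 1.5 on the log2 scale, which 2.46% of tested genes did. After IFNγ 7 of 9 rose, against 5.52% of tested genes, and 6 of them passed the fold limit, against 2.4%. After OSM, an IL-6 family cytokine, 3 of 9 rose, against 1.42% of tested genes, and these were the 3 IFITM genes. Among them IFITM1 and IFITM3 passed the fold limit, against 0.536% of tested genes. The comparisons with unstimulated cells all share the same 4 unstimulated libraries.

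**Figure D2:**
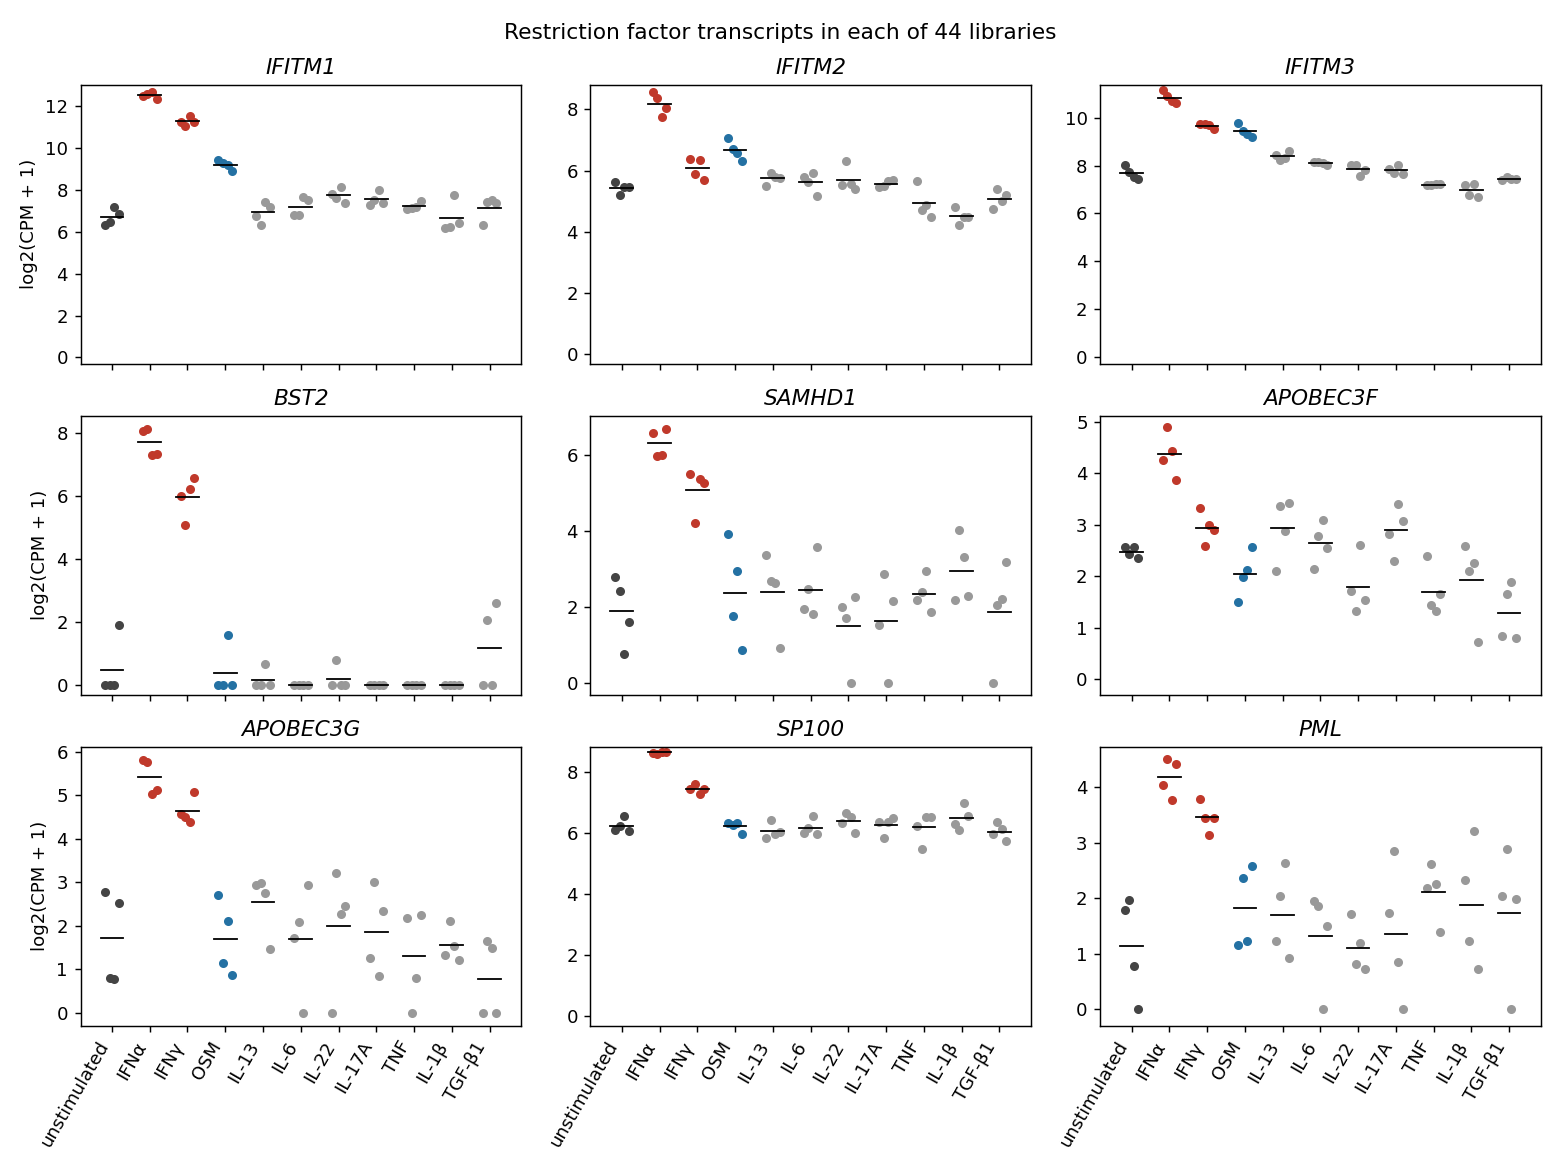
Level of each member in every library, as log2(CPM + 1), by group; each point is 1 library, the bar is the mean of the 4, red marks the interferons, blue OSM, dark grey unstimulated cells and light grey the other cytokines. IFNα libraries lie above the unstimulated ones for every member, and OSM libraries do so for IFITM1, IFITM2 and IFITM3.

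IFITM1, which acts mostly at the cell surface, showed the widest range of the IFITM genes. It was at 80.3, 87.5, 143 and 113 CPM in unstimulated libraries, at 5820, 6110, 6620 and 5210 CPM after IFNα, at 2450, 2150, 2970 and 2460 CPM after IFNγ and at 699, 615, 575 and 478 CPM after OSM. The 4 groups did not overlap. IFNα raised it 56.2-fold (log2 fold change 5.81 ± 0.32, SE, edgeR adjusted p = 6.82e-19), IFNγ 23.7-fold (4.57 ± 0.30, edgeR adjusted p = 4.29e-16) and OSM 5.6-fold (2.49 ± 0.28, edgeR adjusted p = 1.58e-08). In the order of levels the steps from IFNα to IFNγ, from IFNγ to OSM and from OSM to IL-22 each passed the test, the last with a log2 difference of 1.46 ± 0.27 (edgeR adjusted p = 0.000332). From IL-22 at 216 ± 49.6 CPM (SD, n = 4) down to unstimulated cells at 106 ± 28.3 CPM (SD, n = 4), no neighbouring groups differed beyond their spread.

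IFITM1 was also the member nearest to a call after IL-22 and IL-17A. After IL-22 it was at 223, 194, 282 and 166 CPM, all above the unstimulated libraries, with a log2 fold change of 1.03 ± 0.27 and an edgeR adjusted p of 0.11. That value passed the test with DESeq2, with all genes of any count kept, and without unstimulated replicate 3, the highest of the unstimulated libraries. After IL-17A it was at 157, 181, 258 and 167 CPM, again above all unstimulated libraries, with a log2 fold change of 0.85 ± 0.27 and an edgeR adjusted p of 0.114. This too passed without unstimulated replicate 3 and with all genes of any count, but not with DESeq2. Keeping all genes of any count also took the edgeR adjusted p of IFITM1 after IFNα from 6.82e-19 to 8.33e-152. The log2 fold change stayed at 5.81, so calls of IFITM1 under that filter carry less weight.

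IFITM3, which acts mainly in endosomes, was the most abundant member in unstimulated cells. Its levels were 257, 211, 185 and 173 CPM in unstimulated libraries, 2290, 1940, 1660 and 1580 CPM after IFNα, 867, 857, 829 and 732 CPM after IFNγ and 887, 702, 645 and 594 CPM after OSM. IFNγ and OSM overlapped each other and lay between the other groups. It rose 9.03-fold with IFNα (log2 fold change 3.17 ± 0.16, edgeR adjusted p = 4.93e-20), 3.97-fold with IFNγ (1.99 ± 0.15, edgeR adjusted p = 5.14e-14) and 3.42-fold with OSM (1.77 ± 0.15, edgeR adjusted p = 3.8e-11). The log2 difference of 0.22 ± 0.15 between IFNγ and OSM did not pass (edgeR adjusted p = 0.501).

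Outside the interferons and OSM, IFITM3 was also the member that passed most often. After IL-13 it was at 349, 299, 321 and 395 CPM, above every unstimulated library, a 1.65-fold rise (log2 fold change 0.72 ± 0.15, edgeR adjusted p = 0.0016), and it was the 1 member of 9 that rose, where 1.53% of tested genes did. After IL-1β it was at 145, 107, 149 and 101 CPM, below every unstimulated library, and fell by 0.72 ± 0.15 on the log2 scale (edgeR adjusted p = 0.000846). After TNF it was at 143, 145, 151 and 150 CPM, also below every unstimulated library, and fell by 0.49 ± 0.15 (edgeR adjusted p = 0.0249), the only member that fell, where 6.09% of tested genes fell. The TNF call held in 6 of 14 alternatives and was lost when unstimulated replicate 1 or 2 or any TNF library was left out (adjusted p between 0.0162 and 0.151 over the alternatives). The summed fibroblast markers were lower too in the TNF libraries, and their part in the falls after TNF, like that of the endothelial markers after TNF and IL-1β, was not tested. After IL-6 its 282, 280, 278 and 258 CPM lay above the unstimulated libraries, with a log2 fold change of 0.41 ± 0.15 that did not pass (edgeR adjusted p = 1, unadjusted p = 0.00856).

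IFITM2, an endosomal relative of IFITM3, was the least abundant of the 3 per kilobase. It stood at 48.5, 35.7, 42.9 and 43.7 CPM in unstimulated libraries, at 382, 331, 214 and 261 CPM after IFNα, at 82.9, 58.1, 80.6 and 50.6 CPM after IFNγ and at 133, 103, 94.7 and 79.2 CPM after OSM. The IFNγ and OSM libraries overlapped, and both lay above the unstimulated ones. It rose 6.92-fold with IFNα (log2 fold change 2.79 ± 0.24, edgeR adjusted p = 8.61e-13) and 2.4-fold with OSM (1.26 ± 0.23, edgeR adjusted p = 0.000275). With IFNγ its log2 fold change of 0.67 ± 0.23 missed the threshold (edgeR adjusted p = 0.059), and passed it in 5 of 14 alternatives, DESeq2 among them, with adjusted p between 0.0336 and 0.167. OSM stood above IFNγ in the order of its levels, but the log2 difference of 0.60 ± 0.23 did not pass (edgeR adjusted p = 0.114). After IL-1β it was at 27.2, 17.9, 21.6 and 21.4 CPM, all below the unstimulated libraries, and fell by 0.95 ± 0.25 on the log2 scale (edgeR adjusted p = 0.00824). IFITM2 and IFITM3 were thus the 2 of 9 members that fell after IL-1β, where 3.92% of tested genes fell.

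Since the IFITM genes share sequence, their counts were also summed and tested as 1 feature. The sum rose by 4.51 ± 0.18 with IFNα, by 3.26 ± 0.17 with IFNγ, by 1.98 ± 0.16 with OSM and by 0.55 ± 0.16 with IL-13 (log2, edgeR adjusted p = 1.81e-23, 2.29e-19, 1.46e-11 and 0.0386). For IL-1β the sum had a log2 fold change of -0.45 ± 0.16 (edgeR adjusted p = 0.0819) and for TNF one of -0.11 ± 0.16 (edgeR adjusted p = 0.748), so neither fall passed on the sum. The sum includes IFITM1, which was not called lower. Its log2 fold change was 0.08 ± 0.27 after IL-1β and 0.51 ± 0.27 after TNF. For this reason the sum cannot decide whether IFITM2 or IFITM3 fell.

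BST2 went from not measured to abundant. In unstimulated libraries it had 0, 0, 0 and 4 counts, and in TNF, IL-1β, IL-6 and IL-17A libraries 0 counts throughout. After IFNα it was at 266, 279, 157 and 160 CPM and after IFNγ at 63.3, 32.4, 72.8 and 94 CPM. The interferon groups did not overlap each other or any other group. The fitted log2 fold changes of 8.21 ± 0.73 with IFNα (edgeR adjusted p = 1.92e-10) and 6.5 ± 0.73 with IFNγ (edgeR adjusted p = 5.42e-08) rest on the 4 counts of unstimulated replicate 4. Without that library the fitted values became 11.30 and 9.60, and against a floor of 3 counts per library BST2 was at least 112-fold higher after IFNα and at least 34.1-fold higher after IFNγ. In the OSM, IL-13 and IL-22 groups no library passed 3 counts, and after TGF-β1 the libraries had 0, 3, 0 and 7 counts.

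SAMHD1, the deoxynucleotide hydrolase, was at 5.88, 4.37, 0.704 and 2.05 CPM in unstimulated libraries, at 94.8, 61.2, 62.8 and 102 CPM after IFNα and at 44.4, 17.4, 39.9 and 37 CPM after IFNγ. None of these groups overlapped. It rose 23.3-fold with IFNα (log2 fold change 4.54 ± 0.69, edgeR adjusted p = 2.98e-06) and 10.1-fold with IFNγ (3.34 ± 0.67, edgeR adjusted p = 0.000478). The next group down was IL-1β at 7.89 ± 5.48 CPM (SD, n = 4), which was lower than IFNγ (log2 difference 2.14 ± 0.62, edgeR adjusted p = 0.0168).

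The cytidine deaminases moved by different amounts. APOBEC3G was at 5.88, 0.729, 0.704 and 4.78 CPM in unstimulated libraries, at 55.7, 53.3, 31.8 and 33.6 CPM after IFNα and at 22.6, 21.6, 19.9 and 32.8 CPM after IFNγ. The interferon groups overlapped each other and lay above the unstimulated one. It rose 13.5-fold with IFNα (log2 fold change 3.76 ± 0.74, edgeR adjusted p = 0.000222) and 7.53-fold with IFNγ (2.91 ± 0.73, edgeR adjusted p = 0.00524). APOBEC3F was at 4.9, 4.37, 4.93 and 4.1 CPM in unstimulated libraries, at 18.2, 29, 20.7 and 13.7 CPM after IFNα and at 9.04, 4.98, 6.94 and 6.41 CPM after IFNγ. It rose 4.38-fold with IFNα (2.13 ± 0.50, edgeR adjusted p = 0.0022), a call lost when all genes of any count were kept (adjusted p = 0.0653, with 0.00024 to 0.0653 over the 14 alternatives). With IFNγ its log2 fold change was 0.57, with a 95% interval from -0.46 to 1.60 (edgeR adjusted p = 0.55). After TGF-β1 APOBEC3F was at 0.78, 2.13, 2.72 and 0.734 CPM, below every unstimulated library but with at most 3 counts in each, and did not pass (log2 fold change -1.53 ± 0.60, edgeR adjusted p = 0.126).

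The nuclear body genes had very different levels. SP100 was at 67.1, 75.1, 92.9 and 66.3 CPM in unstimulated libraries, at 399, 388, 404 and 406 CPM after IFNα and at 174, 195, 156 and 174 CPM after IFNγ. The groups stood apart, and the IFNα libraries were close to each other. It rose 5.31-fold with IFNα (log2 fold change 2.41 ± 0.20, edgeR adjusted p = 5.78e-13) and 2.32-fold with IFNγ (1.22 ± 0.20, edgeR adjusted p = 1.42e-05), under the fold limit. In the other 8 cytokine groups its means were between 66.3 and 91.5 CPM, and none differed from unstimulated cells at 75.3 ± 12.4 CPM (SD, n = 4). PML was at 2.45, 2.92, 0.704 and 0 CPM in unstimulated libraries, at 15.4, 21.7, 12.7 and 20.5 CPM after IFNα and at 12.8, 9.97, 7.8 and 9.97 CPM after IFNγ. All interferon libraries lay above the unstimulated ones. The rise was 10.8-fold with IFNα (3.44 ± 0.83, edgeR adjusted p = 0.00319) and 6.27-fold with IFNγ (2.65 ± 0.83, edgeR adjusted p = 0.0303). The IFNγ call was lost without unstimulated replicate 3 or 4 or IFNγ replicate 1 or 4 (adjusted p = 0.0848, 0.105, 0.0581 and 0.0584, with 0.00818 to 0.105 over the 14 alternatives).

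**Figure D3:**
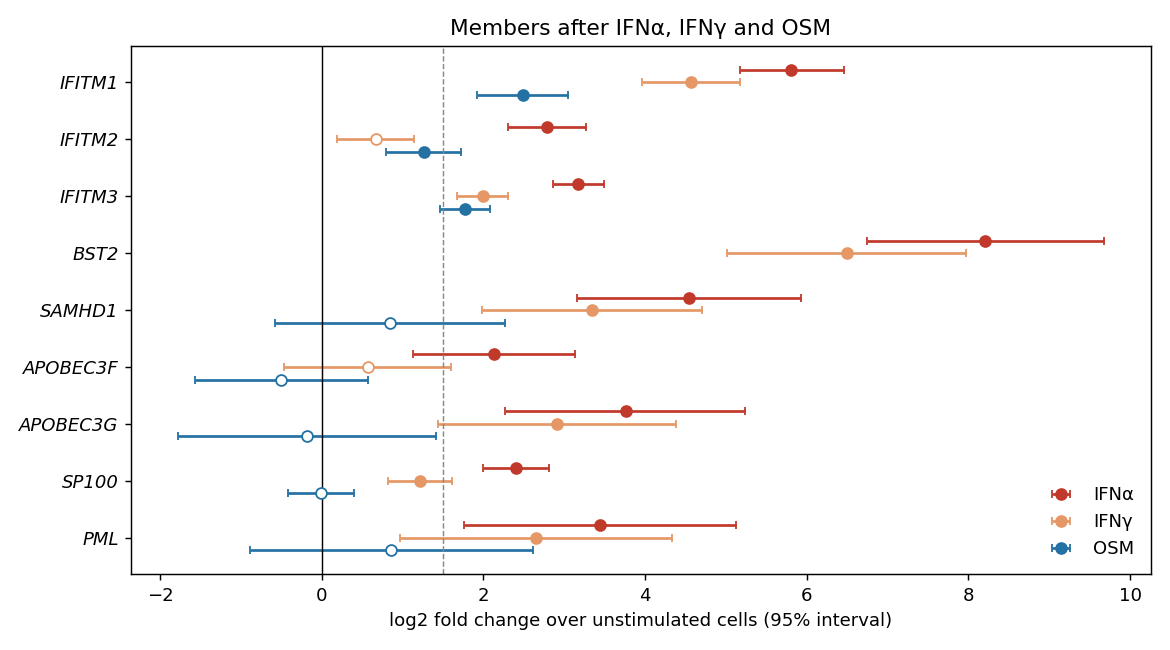
log2 fold change over unstimulated cells for each member after IFNα (red), IFNγ (orange) and OSM (blue), with 95% intervals from the edgeR fit; filled points passed the adjusted p threshold of 0.05, open ones did not, and the dashed line is at 1.5. BST2 after OSM is left out because no library passed 3 counts; after OSM, the filled points are those of IFITM1, IFITM2 and IFITM3.

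After OSM the 6 members other than the IFITM genes did not pass. SAMHD1 after OSM was at 14, 2.37, 6.67 and 0.825 CPM, overlapping the unstimulated libraries (log2 fold change 0.84, 95% interval -0.58 to 2.27). SP100 had an interval from -0.41 to 0.40, so a rise like that of IFITM3 lies outside it. For APOBEC3F, APOBEC3G and PML the intervals ran from -1.57 to 0.57, from -1.78 to 1.41 and from -0.89 to 2.61. The difference between the responses of 2 genes was not tested.

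For 4 cytokines no member was called, with 0 of 9 for IL-6, IL-17A, IL-22 and TGF-β1 by edgeR. Of all tested genes 0.0105%, 1.52%, 0% and 5.69% were called in either direction. At an unadjusted p under 0.05 there was 1 member each, namely IFITM3 for IL-6, IFITM1 for IL-17A and for IL-22, and APOBEC3F for TGF-β1. DESeq2 called 0, 0, 1 and 0 members, the 1 being IFITM1 for IL-22. It gave no adjusted p for 0, 2, 5 and 2 members, which were counted as not called. For IL-22 it left 6271 of the 9513 genes without an adjusted p.

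IFNα and IFNγ, given at the same dose for the same time, were compared directly in the same fit. Of the 9 members 6 were higher after IFNα, where 4.93% of tested genes were, and 0 were lower, where 4.46% were (DESeq2 called 5 members in all, and at an unadjusted p under 0.05 edgeR had 7). The largest difference was that of IFITM2, 4.37-fold higher after IFNα (log2 difference 2.13 ± 0.23, edgeR adjusted p = 3.24e-09). IFITM1 was 2.37-fold higher (1.24 ± 0.26, edgeR adjusted p = 0.000815), IFITM3 2.27-fold (1.19 ± 0.15, edgeR adjusted p = 8.88e-08) and SP100 2.29-fold (1.19 ± 0.19, edgeR adjusted p = 1.77e-05). BST2 was 3.28-fold higher (1.71 ± 0.46, edgeR adjusted p = 0.0144). That call was lost with DESeq2 (adjusted p = 0.69), without IFNα replicate 1 or 2 (0.0716 and 0.0755) and without IFNγ replicate 2 (0.0509), over a range of 0.000232 to 0.69. APOBEC3F was 2.95-fold higher (1.56 ± 0.49, edgeR adjusted p = 0.0334), a call that held in 7 of 14 alternatives, with adjusted p between 0.0164 and 0.315. It was lost without IFNα replicate 1, 2 or 3 and without IFNγ replicate 2, 3 or 4, and with all genes of any count kept.

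SAMHD1, APOBEC3G and PML did not pass between the interferons, though SAMHD1 did when only the 8 libraries compared were fitted. Their log2 differences were 1.21 (95% interval 0.06 to 2.35), 0.85 (-0.43 to 2.12) and 0.79 (-0.66 to 2.25), so differences as large as those of IFITM1 or SP100 remain within the intervals.

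**Figure D4:**
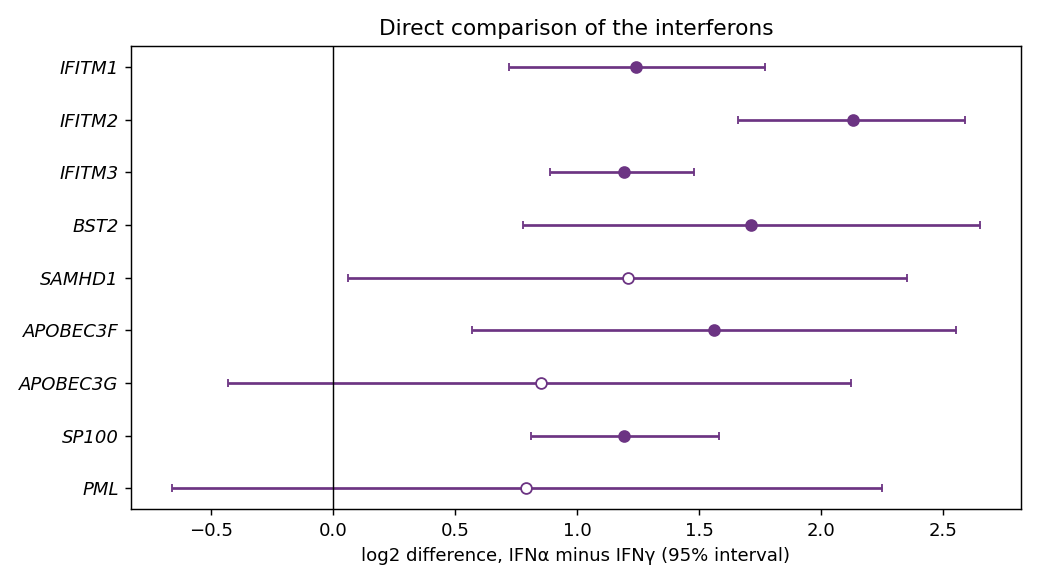
log2 difference between IFNα and IFNγ for each member, with 95% intervals from the edgeR fit; values above 0 are higher after IFNα, filled points passed the adjusted p threshold of 0.05 and open ones did not. All 9 points lie above 0, and IFITM2 lies farthest from it.

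Across the order of levels, 13 of 90 steps between neighbouring groups passed the test, all of them at or above the step from the interferons or OSM down to the next group. BST2 after IFNγ stood above the TGF-β1 group (log2 difference 4.9 ± 0.65, edgeR adjusted p = 1.77e-07), and APOBEC3G after IFNγ above IL-13 (2.16 ± 0.70, edgeR adjusted p = 0.0275). For PML no single step passed, and the largest, from IFNγ to IL-1β, had a log2 difference of 1.48 ± 0.77 (edgeR adjusted p = 0.243). For APOBEC3F the only step that passed was from IFNα to IL-13 (1.51 ± 0.49, edgeR adjusted p = 0.0262).

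For each member, the 2 tested genes with the most similar pattern over the 11 group means of log2 CPM were found. For IFITM1 these were LY6E (Pearson r 0.974) and IFI35 (0.966), for IFITM2 PDLIM1 (0.963) and IFITM3 (0.949), and for IFITM3 PLSCR1 (0.958) and IFITM2. BST2 was most like ADAR (0.985) and TNFSF10 (0.982), SAMHD1 most like PML (0.97) and DDX52 (0.968), and APOBEC3F most like MAP4K3 (0.945) and RBMS2 (0.92). The closest to APOBEC3G were SP110 (0.974) and RTP4 (0.972), to SP100 OAS2 (0.979) and IFI44 (0.978), and to PML ISG20 (0.987) and HLA-B (0.986). These are descriptions over 11 points that share libraries and depth, and IFITM2 and IFITM3 share sequence.

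Other entry and virion factors did not all follow the members. Of 10 listed genes 6 were tested, and after IFNα 3 rose and 1 fell, where 4.99% of all tested genes rose and 4.86% fell. Their median log2 fold change was 0.94, against -0.01 over all tested genes. LY6E, a surface protein that hinders coronavirus entry, went from 6.02 ± 4.58 to 147 ± 25.5 CPM (SD, n = 4; log2 fold change 4.53 ± 0.57, edgeR adjusted p = 5.84e-08). The guanylate-binding proteins GBP2 and GBP5, which hinder the maturation of viral envelope proteins, rose more with IFNγ than with IFNα, with log2 differences (IFNα minus IFNγ) of -3.33 ± 0.28 and -5.28 ± 0.65 (edgeR adjusted p = 2.51e-12 and 2.13e-06). GBP5 was not above 3 counts in any unstimulated library, and was at least 229-fold higher after IFNγ. SERINC5, which lowers the infectivity of retroviral particles, fell with IFNα from 723 ± 142 to 418 ± 89.5 CPM (SD, n = 4; edgeR adjusted p = 0.00722), fell with TNF by 1.57 ± 0.21 on the log2 scale (edgeR adjusted p = 3.92e-07) and rose with OSM (0.78 ± 0.21, edgeR adjusted p = 0.0197). After IFNγ 3 of the 6 rose and 0 fell (median 1.28), where 5.52% of all tested genes rose and 5.13% fell.

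Of 19 other factors that act on viral nucleic acid 16 were tested. After IFNα 9 rose and after IFNγ 6, against 4.99% and 5.52% of all tested genes. The medians were 2.36 and 0.85 (2.23 and 1.09 with genes under the floor at their bound). MX1, a GTPase that traps viral nucleoproteins, went from 2.04 ± 0.963 to 991 ± 172 CPM with IFNα (SD, n = 4; log2 fold change 8.85 ± 0.52, edgeR adjusted p = 2.49e-17) and to 23.8 ± 9.78 CPM with IFNγ. HERC5, a ligase for ISG15, and MX2, which hinders nuclear entry of retroviruses, had at most 3 counts in every unstimulated library and were at least 107-fold and 124-fold higher after IFNα. ISG20, an exonuclease, rose with IFNα (7.12 ± 0.40, edgeR adjusted p = 1.39e-18) and IFNγ (4.51 ± 0.39, edgeR adjusted p = 3.21e-12). SLFN11, which limits the translation of viral proteins, rose with IFNγ (2.07 ± 0.48, edgeR adjusted p = 0.00249) and stood higher after IFNγ than after IFNα (edgeR adjusted p = 0.0106). After OSM 0 of the 16 were called by edgeR, where 1.42% of all tested genes rose and 2.54% fell. Their median log2 fold change was 0 (-0.13 with genes under the floor at their bound).

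Of 11 other components of PML nuclear bodies 9 were tested, with medians of 0.10 after IFNα and 0.18 after IFNγ. After each interferon 2 rose, against 4.99% and 5.52% of all tested genes. They were SP110, a relative of SP100 (3.86 ± 0.25 and 2.45 ± 0.24, edgeR adjusted p = 2.26e-16 and 1.78e-10), and IFI16, a sensor of viral DNA (2.64 ± 0.16 and 1.33 ± 0.16, edgeR adjusted p = 1.81e-17 and 1.09e-08). IFI16 also rose after OSM, from 181 ± 15.2 to 560 ± 60.3 CPM (SD, n = 4; 1.63 ± 0.16, edgeR adjusted p = 3.65e-10), and it was the 1 gene of this list that did. The chromatin remodeller ATRX fell with IFNα (-0.56 ± 0.18, edgeR adjusted p = 0.0412). DAXX, the partner of ATRX, rose 3.26-fold with TNF (edgeR adjusted p = 5.65e-05) and 2.25-fold with IL-1β (edgeR adjusted p = 0.0071), where 5.37% and 3.46% of all tested genes rose, while PML itself had log2 fold changes of 1.11 ± 0.86 and 1.17 ± 0.85 that did not pass.

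Among the 8 enzymes that supply the deoxynucleotides SAMHD1 breaks down, all tested, 3 fell after IFNα and 0 rose. Of all tested genes 4.86% fell and 4.99% rose. The median log2 fold change of the 8 was -1.05, against -0.01 over all tested genes. RRM2, a subunit of ribonucleotide reductase, went from 133 ± 32.8 to 19.5 ± 7.33 CPM (SD, n = 4; log2 fold change -2.74 ± 0.24, edgeR adjusted p = 2.8e-12), RRM1, its partner, fell by 1.33 ± 0.26 (edgeR adjusted p = 0.000245) and the kinase DCK fell by 1.16 ± 0.38 (edgeR adjusted p = 0.039). After IFNγ only DCK fell (-1.43 ± 0.39, edgeR adjusted p = 0.00985), where 5.13% of all tested genes fell. RRM2 was lower after IFNα than after IFNγ by a log2 difference of -2.15 ± 0.24 (edgeR adjusted p = 9.54e-09). After IL-13 the same 3 genes fell, where 2.4% of all tested genes fell (RRM2 -1.77 ± 0.23, edgeR adjusted p = 5.63e-07), while SAMHD1 did not pass (0.65 ± 0.72, edgeR adjusted p = 0.758). After OSM RRM2 and DCK fell, where 2.54% of all tested genes fell.

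Of the receptors and signal chain of both interferons 10 of 11 genes were tested. After each interferon 5 rose, against 4.99% of all tested genes for IFNα and 5.52% for IFNγ. IRF1, a transcription factor induced by interferons, was at 5.05 ± 3 CPM in unstimulated cells, at 15.1 ± 9.38 CPM after IFNα and at 121 ± 7.01 after IFNγ (SD, n = 4; log2 difference, IFNα minus IFNγ, -2.99 ± 0.47, edgeR adjusted p = 1.23e-05). STAT2 and IRF9 rose with both, but spread widely after IFNγ, at 1690 ± 1140 and 36.9 ± 38.2 CPM (SD, n = 4). After OSM IFNGR1, a subunit of the IFNγ receptor, was the 1 gene of the 10 that rose (0.78 ± 0.22, edgeR adjusted p = 0.0254). Of all tested genes 1.42% rose after OSM. After TNF 3 of the 10 rose, where 5.37% of all tested genes did, while no member rose. The 3 were led by IFNAR2, a subunit of the IFNα receptor (2.28 ± 0.39, edgeR adjusted p = 3.44e-05).

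**Figure D5:**
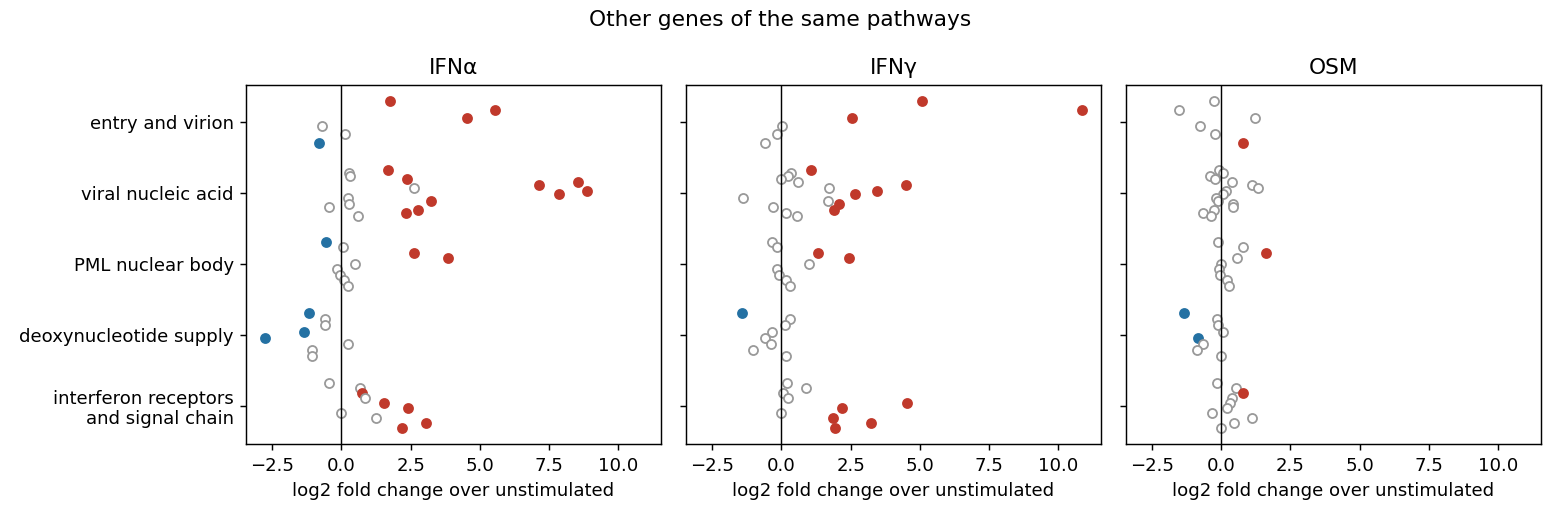
log2 fold change over unstimulated cells of the tested genes of 5 lists related to the members, after IFNα, IFNγ and OSM; each point is 1 gene, red if it rose, blue if it fell and open if it did not pass the adjusted p threshold of 0.05. After OSM, 3 genes of the lists rose (SERINC5, IFI16 and IFNGR1), where 1.42% of all tested genes rose.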

How the data were processed

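Total RNA of 44 Ccd-18Co samples was sequenced by the authors. Read quality was inspected by them in FastQC 0.11.9 and MultiQC 1.14, and transcripts were quantified in kallisto 0.48.0 at its defaults. The deposited values are estimated counts per gene symbol, not scaled for depth, of which 5.73% are not whole. The IL-1β dose is that of the labels, and the study also gives a lower one elsewhere. The labels name hg38; which transcripts were indexed, how they were summed to symbols and whether strand was used are not given in the sources used here.

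The deposited estimated counts were rounded. Genes were kept by filterByExpr (9513), scaled by TMM, and fitted over all 44 libraries in 1 quasi-likelihood model in edgeR (version 4.0.16, R version 4.3.3), with Benjamini-Hochberg adjustment over all tested genes in each comparison. The threshold for a call was an adjusted p of 0.05. The study's fold limit, an absolute log2 fold change above 1.5, is given beside it. SEs are the log2 fold change divided by the root of the F statistic. CPM use the scaled library sizes. DESeq2 (version 1.42.0) was an alternative. The code was tested on simulated data. Totals were 742173 to 2213424 counts, and floors of 3 counts allow for counting error only, because PCR copies were not marked by molecular identifiers.

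Lengths, loci and 31-base words come from GENCODE v44 (canonical transcripts for lengths), promoters from RefSeq. The named genes were all members and, for each member, the 2 tested genes of highest Pearson r over group means. For each of 5 lists, some genes called in a comparison were also named, not always those with the largest log2 fold changes. A gene of the signal chain list is not reported here. The members and lists were chosen with earlier results of these data known. Of 40 same-numbered pairs of stimulated and unstimulated libraries, 6 had deviations that correlated above 0.1, and for no cytokine did every pair, so numbers were not taken to pair libraries. The highest were replicate 1 of IL-6, IFNα, OSM and TGF-β1 (r 0.281, 0.277, 0.25 and 0.167). The other replicate 1 pairs were between -0.0857 and 0.0617. The replicate number was therefore also run as a block. Counts of replicates of a group differed by more than sampling noise.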

Additional observations from a re-analysis of the deposited data

Results flagged for a closer look

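Of 106 sets of 4 libraries (the totals and the 9 members in 11 groups, where not all were equal), 10 had 1 library far from the other 3 by Dixon's criterion, where chance gives about 1 in 20, or 5.3. Of these, 4 were BST2 near 0, at 2.73 CPM in unstimulated replicate 4 (4 counts), 2 CPM in OSM replicate 3 (3 counts), 0.577 CPM in IL-13 replicate 3 and 0.754 CPM in IL-22 replicate 2 (1 count each), with the other 3 libraries at 0. A set with 3 libraries at 0 and 1 above it is always picked out by this criterion, so these 4 cannot be set against the 5.3.

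IFITM1 in IL-1β replicate 3 was at 217 CPM, with the others at 71.1 to 85.6 CPM. The same library was the highest of its group for IFITM3 (149 CPM, with 145 in replicate 1), SP100 (125 CPM) and PML (8.26 CPM). For IFITM2, SAMHD1, APOBEC3F and APOBEC3G another library was the highest, and BST2 had 0 counts throughout. IFITM1 in TGF-β1 replicate 1 was at 79.5 CPM, below the others at 164 to 181 CPM. IFITM2 in IL-22 replicate 2 was at 78.4 CPM, above the others at 41 to 46.1 CPM. IFITM3 in IL-6 replicate 4 was at 258 CPM, below the others at 278 to 282 CPM.

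The total count was 2095807 in IL-1β replicate 1, against 1620541 to 1660473 in the others, and 1486860 in IL-6 replicate 2, against 1612043 to 1627960.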

How the results depend on the processing

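Depth limits BST2, SAMHD1, APOBEC3F, APOBEC3G and PML, which had 0 to 23 counts per library outside the interferon groups, so that only large changes could be seen. With DESeq2's size factors the median of all genes moved by less than 0.1 on the log2 scale in every comparison. The counts of members called after IFNα, IFNγ, OSM, IL-6 and TGF-β1 stayed within 1.5 times of the reported ones under every alternative run for them, as did the count of steps between neighbouring groups under the 4 run for it (DESeq2's size factors, both other filters and the replicate block). No direction reversed among the log2 differences recomputed, which were those of all members after both interferons, of the IFITM genes after OSM, of IFITM3 after TNF, IL-1β and IL-13, of IFITM2 after IL-1β, and of the 6 members called between the interferons. Between the interferons, fitting only the 8 libraries compared added SAMHD1 to these 6. With the fold limit added to the call, 0 members were called for TNF, 0 for IL-1β, 0 for IL-13 and 3 of 6 between the interferons. For TNF 0 members were called with all genes of any count or with only the 8 libraries compared. With all genes of any count, 1 member was called for IL-17A and 1 for IL-22, and DESeq2 called 1 for IL-22. Leaving out 1 library gave 0 to 1 members for TNF (IFITM2 in place of IFITM3 without TNF replicate 1), 0 to 1 for IL-17A and 0 to 1 for IL-22. The added IL-17A and IL-22 member was IFITM1 each time. Where a call was lost or gained, the cause was not tested. Replicate numbers are shared between groups, and with the replicate number as a block 9 members were called for IFNα, 8 for IFNγ (IFITM2 added), 1 for IL-17A and 1 for IL-22 (IFITM1), with the calls of the other comparisons as reported. The block moved the count over all genes from 145 to 223 for IL-17A and from 0 to 12 for IL-22. Alternatives for OSM, IL-13, TNF, IL-1β, the direct comparison and the neighbouring steps were partly chosen after seeing the data.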
